A study of Mus musculus with 6 samples.

Results

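Superoxide dismutases, catalase, peroxiredoxins and heme oxygenase 1 are enzymes that remove reactive oxygen species or break down heme. The 10 genes described here are Sod1, Sod2, Sod3, Cat, Prdx1, Prdx2, Prdx3, Prdx5, Prdx6 and Hmox1, chosen by name and each found as 1 row among 46078 deposited gene rows. All 10 were among the 14535 genes that passed the filter on low values. RNA of whole ovaries was sequenced from C57BL/6 mice, 8 to 9 weeks of age, in 3 control libraries and 3 libraries from mice treated with cyclophosphamide (CTX), an alkylating chemotherapy drug that harms the ovary. The sources used here do not give dose, route, time after treatment or stage of the estrous cycle. Whether each library is a different mouse is not stated either, so a p-value speaks for the spread between libraries, which may be technical.

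Superoxide leaks from respiring mitochondria and, in steroid-making cells, from the cytochromes that cut cholesterol. Superoxide dismutases turn it into hydrogen peroxide, which catalase and the peroxiredoxins remove. Peroxiredoxins are recharged by thioredoxin, and many genes of this system are switched on by the transcription factor NRF2 through antioxidant response elements. In the ovary, the corpus luteum, the progesterone-making gland that forms from an ovulated follicle, is known for strong antioxidant enzyme activity.

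Levels are given as RPKM, reads scaled by gene length and library depth, as deposited. Values of the 3 libraries of a group are given in the order of their replicate numbers. Differences are log2 fold changes, CTX minus control, of RPKM + 1, from a limma model fitted to all 14535 genes. The threshold for a call was an adjusted p (Benjamini-Hochberg) of 0.05. The scale of each library, read from the steps of its low values, corresponded to 15800000 to 16800000 reads for control and 17000000 to 22100000 reads for CTX. With annotated exon lengths, which need not be those the authors used, each of the 10 genes had at least 627 estimated reads in every library, and counting error alone in the shallowest value was 0.714% (Sod1) to 3.99% (Hmox1). The labelled tissue was checked against its markers, and all 15 luteal, 13 granulosa and 13 oocyte markers had reads in these libraries.

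The libraries stood apart from each other in their luteal markers, and not by group. The mean log2(RPKM + 1) of the 15 luteal markers was 7.86, 8.10 and 6.02 in the controls and 8.21, 5.98 and 5.97 under CTX. Their summed RPKM ranged from 4990 to 11126 in control and from 3922 to 13389 in CTX. Granulosa markers as a sum went the other way, with 1772, 1615 and 3910 RPKM in the controls and 1039, 3528 and 3503 under CTX. Among these 13 markers, Foxl2 and Inhbb did not divide the libraries so. Foxl2 had 90.3, 91.1 and 90.9 in the controls and 78.9, 94.0 and 93.5 under CTX. Inhbb had 92.6, 80.3 and 255 in the controls and 20.3, 69.0 and 71.1 under CTX. Controls 1 and 2 and CTX 1 were thus high in luteal RNA, and control 3 and CTX 2 and 3 low. The summed RPKM of 10 adipocyte markers divided the libraries the same way, in the opposite direction. It was 11.2, 7.61 and 162 in the controls and 8.83, 227 and 214 under CTX. Oocyte markers summed to 196, 167 and 401 in the controls and 126, 452 and 451 under CTX. Theca and interstitial markers summed to 972, 890 and 1398 and to 735, 1695 and 1703. Insl3, of the theca list, did not follow that sum. Luteal, granulosa, oocyte, theca and adipocyte content can therefore not be told apart in these libraries. In whole tissue, fewer cells of a type and less RNA per cell cannot be told apart. CTX 1 also had the highest sum of 30 ribosomal protein genes, 15381 RPKM against 9892 to 12111 in the other 5 libraries. All deposited genes in CTX 1 summed to 389708 RPKM, against 328258 to 347452 in the others. CTX 1 had 13629 genes at an RPKM of 1 or more, against 14275 to 14511 in the others. Its deviations from the mean of each gene fell with exon length (Spearman correlation −0.27 across 14477 genes, against 0.01 to 0.15 in the others, where genes are not independent).

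Promoter sequence upstream of the annotated exons is shown for 2 genes whose levels differed widely between libraries, Sod1 and Prdx1, and for 1 that differed little, Cat. The sequences are from RefSeq on GRCm38.p6, the same assembly as mm10, and run 5′ to 3′ on the strand of the gene. Capitals mark GC boxes (GGGCGG) and the core of the antioxidant response element (TGACNNNGC), on either strand. The windows are chr16:90220512-90220753 on the plus strand for Sod1, chr4:116685349-116685543 on the plus strand for Prdx1 and chr2:103485161-103485403 on the minus strand for Cat. They end 8, 55 and 7 bases before the RefSeq start.
Sod1: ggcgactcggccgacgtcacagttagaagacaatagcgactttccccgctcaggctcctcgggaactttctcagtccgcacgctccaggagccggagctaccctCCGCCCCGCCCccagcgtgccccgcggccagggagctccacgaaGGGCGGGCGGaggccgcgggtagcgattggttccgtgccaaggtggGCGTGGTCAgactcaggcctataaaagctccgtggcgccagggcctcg
Prdx1: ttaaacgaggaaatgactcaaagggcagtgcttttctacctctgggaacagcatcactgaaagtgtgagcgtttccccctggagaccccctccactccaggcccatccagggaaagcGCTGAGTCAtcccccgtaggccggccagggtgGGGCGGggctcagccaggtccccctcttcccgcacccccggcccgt
Cat: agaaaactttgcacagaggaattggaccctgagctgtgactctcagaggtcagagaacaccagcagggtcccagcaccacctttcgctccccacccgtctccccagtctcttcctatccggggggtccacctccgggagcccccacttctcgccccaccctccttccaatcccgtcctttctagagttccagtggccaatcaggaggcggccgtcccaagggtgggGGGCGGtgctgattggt

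The antioxidant core was found once in the Prdx1 window, as GCTGAGTCA, and once in that of Sod1, as GCGTGGTCA, both on the reverse strand. In Sod1 both pairs of neighbouring GC boxes overlap each other. RefSeq promoter windows, from 250 bases before to 50 after the start, were given for 7 of the 10 genes, and none for Sod3, Prdx6 and Hmox1. The antioxidant core was in 2 of the 7 (Prdx1 and Sod1) and in 12.4% of 32851 promoters of the same length. It was absent from the other windows, among them those of Sod2 and Prdx2, whose levels also differed widely between libraries. A GC box was in all 7 and in 35.7% of promoters. The steroidogenic factor 1 site (CAAGGTCA) was in 0 of the 7 and in 1.56% of promoters. These matches are letters in a window and were not tested as binding sites.

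None of the 10 genes passed the test between CTX and control. Limma called 0 higher and 0 lower, where 0% of all 14535 genes were called, and the adjusted p was 1.00 for each of the 10. At an unadjusted p under 0.05 there were 0 of the 10 and 3.45% of all genes. The control and CTX libraries overlapped in all 10 genes, while they did not overlap in 8.83% of all genes. The log2 fold changes ran from −0.34 (Hmox1) to 0.08 (Sod1), 5 positive and 5 negative, with a median of −0.01 beside −0.01 over all genes tested. After quantile normalization 2 were positive and 8 negative, beside 49.7% negative over all genes, and 1 had an unadjusted p under 0.05 (4.09% of all genes). With the trend with exon length removed, 5 were positive and 5 negative, and 1 had an unadjusted p under 0.05 (4.08% of all genes). The intervals of the single genes were wide, so a failed test does not show that levels were alike.

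**Figure D1:**
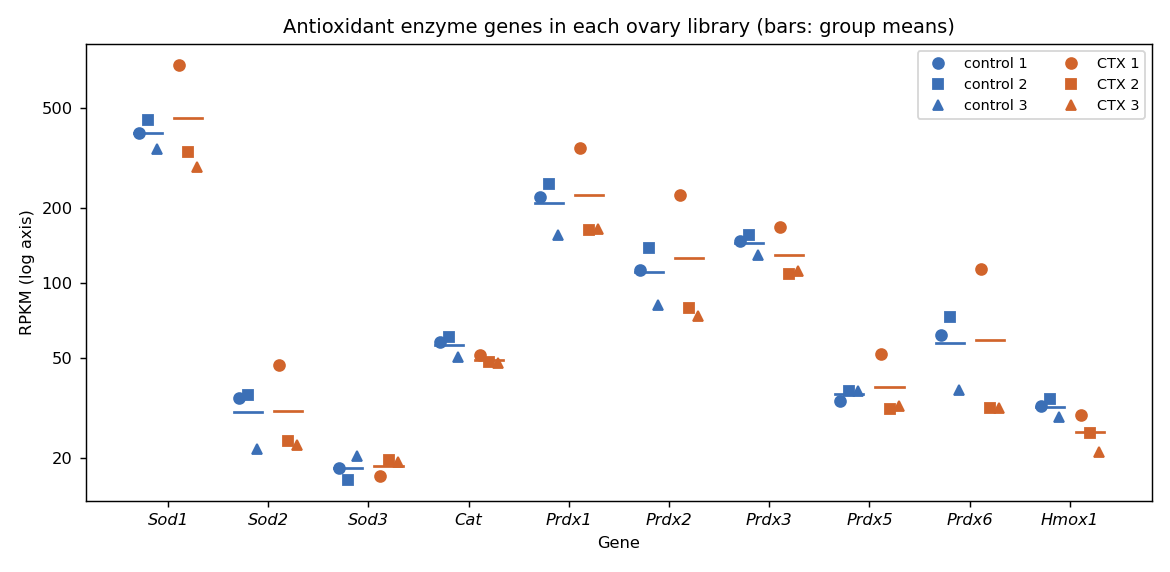
RPKM on a log axis for each of the 10 genes, with control libraries in blue and CTX libraries in orange, 1 symbol per library and a bar at each group mean. CTX 1 is the highest library for 7 genes, from 46.9 RPKM for Sod2 to 747 for Sod1, but not for Sod3, Cat and Hmox1, and CTX 2 and 3 lie at or near the lowest values of those 7.

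By mean RPKM over the 6 libraries the order was Sod1 (428), Prdx1 (217), Prdx3 (137), Prdx2 (119), Prdx6 (58.3), Cat (52.9), Prdx5 (37.3), Sod2 (30.8), Hmox1 (28.7) and Sod3 (18.5). RPKM divides by gene length, and the sources used here do not give the length the authors used. For Sod2, with 10008 annotated exonic bases, that length bears on its place. Sod1, Prdx1 and Prdx3 kept their order in all 6 libraries, as did Prdx2 above Prdx6 and Hmox1 above Sod3. Prdx6 was above Cat in 3 of 6 libraries and Sod2 above Hmox1 in 4 of 6, so these neighbours did not differ beyond their spread. Prdx3 above Prdx2, Cat above Prdx5 and Prdx5 above Sod2 each held in 5 of 6.

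Sod1 encodes the copper and zinc superoxide dismutase of the cytosol (chromosome 16, 90220754 to 90226329, plus strand, mm10). Its level was 399.6, 450.2 and 343 RPKM in the controls and 747, 336 and 291 under CTX. CTX 1 stood above every control, and CTX 2 and 3 stood below every control. The means were 397 ± 53.8 RPKM in control and 458 ± 252 in CTX (SD, n = 3 each, as for all means below). The log2 fold change was 0.08 (95% interval −0.81 to 0.98). Without CTX 1 it was −0.34 (−0.73 to 0.06), with an adjusted p of 0.338 in limma. Leaving out control 3 also turned the direction (−0.02).

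Sod2 encodes the manganese superoxide dismutase of mitochondria (chromosome 17, 13006846 to 13040063, plus strand). Its level was 34.6, 35.6 and 21.7 RPKM in the controls and 46.9, 23.3 and 22.5 under CTX. Control 3, the control low in luteal markers, had the lowest value of all, beside CTX 2 and 3. The means were 30.6 ± 7.78 in control and 30.9 ± 13.9 in CTX, with a log2 fold change of −0.04 (−0.84 to 0.76). The level of Sod1 per length was 11.5 to 15.9 times that of Sod2 across the 6 libraries.

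Sod3 encodes the secreted superoxide dismutase bound to the extracellular matrix (chromosome 5, 52363791 to 52371418, plus strand). It had 18.2, 16.3 and 20.4 RPKM in the controls and 16.9, 19.7 and 19.2 under CTX. In contrast to the other dismutases, its highest values were in control 3 and CTX 2 and 3, though the whole range was only 1.25-fold. Its log2 fold change was 0.03 (−0.28 to 0.33). Sod3 is known from vessel walls, and the summed RPKM of 10 smooth muscle and pericyte markers was 593, 587 and 880 in the controls and 832, 1054 and 971 under CTX, with Acta2, the smooth muscle actin gene, the most abundant. The pericyte marker Rgs5 went the other way, with 44.9, 44.6 and 31.0 in the controls and 41.6, 19.7 and 21.2 under CTX, and 12 endothelial markers summed to 178, 192 and 172 and to 192, 144 and 137. Adipocyte, granulosa, oocyte and theca markers were, by their sums, also high in control 3 and CTX 2 and 3. The part of any of these markers in the Sod3 values was not tested.

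Cat encodes catalase, the peroxisomal enzyme that splits hydrogen peroxide (chromosome 2, 103453849 to 103485160, minus strand). Its level was 58.3, 60.9 and 50.5 RPKM in the controls and 51.5, 48.3 and 47.9 under CTX. The 3 CTX values lay close together, and only CTX 1 reached above a control. All 3 libraries high in luteal markers lay above the 3 low ones, by little for CTX 1 over control 3. Unlike Sod1, Cat was not raised in CTX 1. The means were 56.6 ± 5.41 and 49.2 ± 1.98, which is a log2 fold change of −0.19 (−0.47 to 0.09).

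Prdx1 and Prdx2 encode the abundant cytosolic peroxiredoxins, which use thioredoxin. Prdx1 (chromosome 4, 116685544 to 116700822, plus strand) had 221, 249.99 and 156 RPKM in the controls and 348, 164 and 164 under CTX. The log2 fold change of Prdx1 was 0.04 (−0.80 to 0.88), and without CTX 1 it was −0.32 (−0.86 to 0.22). Prdx1 and Sod2 had the most similar profiles among all pairs of the 10 genes, with a root mean square difference of 0.07 on the log2 scale once each gene was centred on its own mean over the 6 libraries. Controls 1 and 2 and CTX 1 were high and the others low in both.

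Prdx2, also abundant in red blood cells, lies on chromosome 8 (84969587 to 84974834, plus strand). Its level was 113, 138 and 81.8 RPKM in the controls and 226, 79.2 and 73.6 under CTX. The library CTX 1 was 3.07 times CTX 3, a wider spread than between the group means of 111 ± 28.1 and 126 ± 86.2. Its log2 fold change was 0.02 (−1.09 to 1.12) and without CTX 1 −0.50 (−1.07 to 0.07). The summed RPKM of 7 erythroid markers was 18.4, 27.2 and 22.8 in the controls and 21.8, 75.5 and 66.5 under CTX, and their part in the Prdx2 values was not tested. Prdx2 shares 173 exonic bases with Junb and 177 with Rnaseh2a, both on the opposite strand, and the sources used here do not say whether counting used strand. Junb had 17.0, 21.6 and 27.5 RPKM in the controls and 35.3, 10.9 and 10.5 under CTX. Rnaseh2a had 18.9, 20.3 and 13.0 in the controls and 33.5, 11.4 and 10.9 under CTX, with CTX 1 highest and control 2 second as in Prdx2.

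The mitochondrial peroxiredoxin gene Prdx3 (chromosome 19, 60864051 to 60874556, minus strand) had 147, 156 and 130.1 RPKM in the controls and 167, 109 and 112 under CTX. CTX 2 and 3 were below every control, and CTX 1 above every control. Prdx3 had a log2 fold change of −0.19 (−0.67 to 0.29) with all libraries and −0.39 (−0.66 to −0.11) without CTX 1, where the limma adjusted p was 0.241. It was −0.08 without CTX 2 and −0.10 without CTX 3.

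Prdx5, whose product works in mitochondria, peroxisomes and the cytosol, lies on chromosome 19 (6906697 to 6910106, minus strand). It had 33.9, 37.0 and 37.1 RPKM in the controls and 52.3, 31.4 and 32.1 under CTX. The controls were within 1.09-fold of each other, and CTX 1 alone was far above them. Prdx5 had a log2 fold change of 0.06 (−0.45 to 0.56), and without CTX 1 it was −0.17 (−0.38 to 0.03). Of the exonic bases of Prdx5, 19.1% (409 bases) are shared with Trmt112 on the opposite strand, a gene listed at 4.88 to 8.23 RPKM.

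Prdx6, the peroxiredoxin with a single catalytic cysteine that also acts on phospholipids, lies on chromosome 1 (161240112 to 161251219, minus strand). It varied most of the 10 genes, with 61.9, 73.1 and 37.4 RPKM in the controls and 114, 31.6 and 31.8 under CTX. The highest library was 3.60 times the lowest, both in the CTX group. All 3 libraries high in luteal markers lay above all 3 low ones. The group means of Prdx6 were 57.5 ± 18.2 and 59.1 ± 47.4, and the log2 fold change was −0.18 (−1.48 to 1.12). Without CTX 1 it was −0.78 (−1.50 to −0.07), with a limma adjusted p of 0.284. The retrocopy Prdx6b was listed at 0 in every library, and the pseudogene rows Prdx6-ps2 and Prdx2-rs3 at or near 0. How the authors treated reads matching several places is not given, so levels of peroxiredoxins with near-identical copies are uncertain to that extent.

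Hmox1 encodes heme oxygenase 1, which splits heme into biliverdin, iron and carbon monoxide and is a common marker of oxidative stress. The gene lies on chromosome 8 (75093621 to 75100589, plus strand). Its level was 32.4, 34.4 and 29.3 RPKM in the controls and 29.8, 25.2 and 21.1 under CTX. CTX 2 and 3 were below every control, and CTX 1 was between control 3 and control 1. The 3 libraries high in luteal markers were above the 3 low ones in Hmox1 as well, by little for CTX 1 over control 3. The means were 32.0 ± 2.56 and 25.3 ± 4.37, with a ratio of 0.792. With −0.34 (−0.70 to 0.03), the log2 fold change of Hmox1 was the most negative of the 10 and had an unadjusted p of 0.0663 in limma. Without CTX 1 it was −0.46 (−0.75 to −0.16), with an adjusted p of 0.216, and without CTX 3 it was −0.21. Macrophages recycle heme. The summed RPKM of 12 macrophage markers was 535, 411 and 366 in the controls and 521, 346 and 344 under CTX. None of the 12 was at 0 throughout. The most abundant, Lyz2, made up much of that sum, with 318, 228 and 178 in the controls and 282, 189 and 189 under CTX. Csf1r did not follow it, with 12.55, 10.94 and 12.21 in the controls and 7.54, 9.29 and 8.73 under CTX. Cd163, under the filter, also had all CTX values below all controls. Of the 10 markers above the filter, 3 were positive and 7 negative. The part of these markers in the Hmox1 values was not tested.

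**Figure D2:**
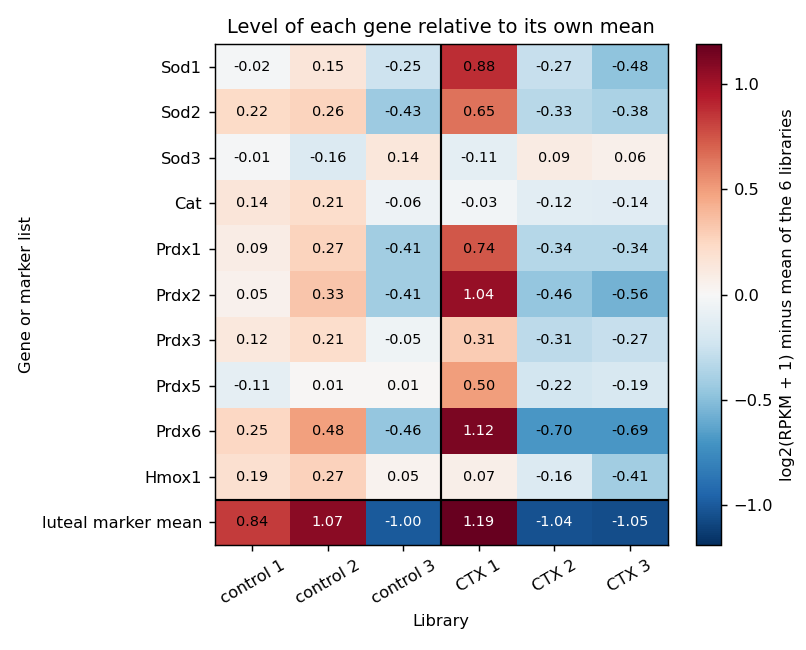
Each cell is the log2(RPKM + 1) of 1 gene in 1 library minus the mean of that gene over the 6 libraries, with the centred mean of 15 luteal markers in the bottom row and a vertical line between control and CTX. Prdx6 runs from −0.70 in CTX 2 to 1.12 in CTX 1, and Sod1, Sod2, Prdx1 and Prdx2 have the same highest library, while Sod3 and Cat stay within 0.21 of their means.

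The 10 genes differed in their spread over the libraries. Over all genes tested the median range of log2(RPKM + 1), highest minus lowest library, was 0.60. Prdx6 (1.82), Prdx2 (1.60), Sod1 (1.36), Prdx1 (1.15) and Sod2 (1.08) exceeded it, each wider than at least 81.7% of tested genes. Prdx5 (0.72), Hmox1 (0.68) and Prdx3 (0.62) were near the median, and Cat (0.34) and Sod3 (0.30) below it. In all of the 5 genes with wide ranges, CTX 1 was the highest library and control 2 the second. The second highest luteal mean was also that of control 2, after CTX 1. In 8 of the 10 genes the 3 libraries high in luteal markers lay above the 3 low ones, as in 16.5% of all genes tested. The exceptions were Prdx5 and Sod3, and in Sod3 those 3 libraries lay below, as in 30.9% of all genes tested. In Cat and Hmox1 the step from control 3 to CTX 1 was small (50.5 to 51.5 and 29.3 to 29.8 RPKM). The part of luteal content in these values was not tested beyond the fit with a luteal covariate given below. That of granulosa, oocyte, theca and adipocyte content, whose marker sums divided the libraries the same way, was not tested.

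Outside the 10 genes, those with the most similar profiles to Prdx6 were Ndufc2, a subunit gene of respiratory complex I, and Tmem141, a transmembrane protein gene, among 6475 genes with a mean RPKM of at least 10. Their root mean square differences on the centred log2 scale over the 6 libraries were 0.05 and 0.06. For Prdx2 they were the tubulin gene Tubb6 (0.05) and Mien1 (0.07), and for Sod1 they were Gm5617 (0.05) and Ndufb7 (0.06), another complex I gene. Ndufc2, for example, had 156, 184 and 91.4 RPKM in the controls and 291, 79.8 and 74.8 under CTX.

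**Figure D3:**
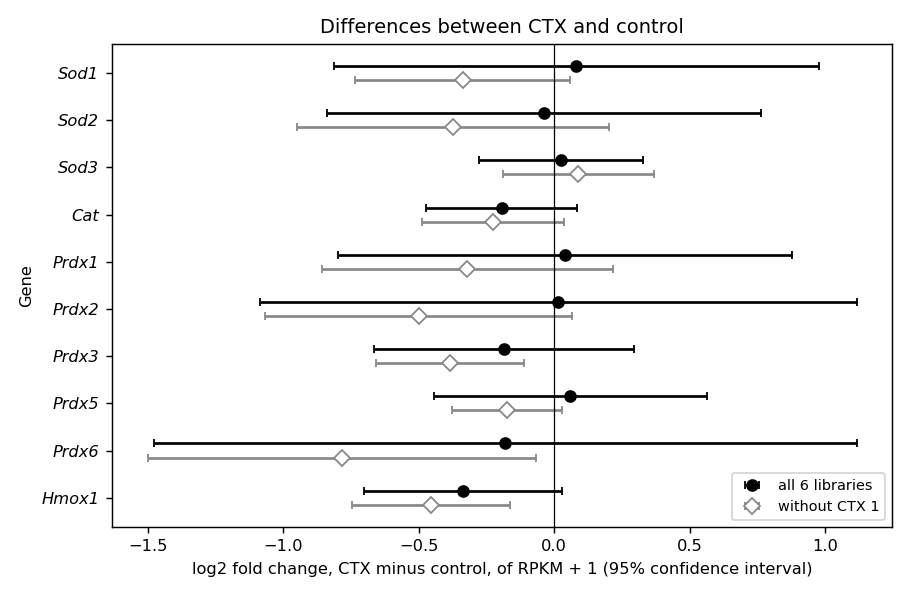
Log2 fold change of RPKM + 1, CTX minus control, for each of the 10 genes with its 95% confidence interval from limma, for all 6 libraries (black circles) and without CTX 1 (open diamonds). With all libraries every interval includes 0, and without CTX 1 the values of all genes except Sod3 are negative, with intervals below 0 for Prdx3, Prdx6 and Hmox1 before adjustment.

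The balance of the 10 genes moved with the library left out. Without control 3, 8 were negative with a median of −0.22, beside 46.9% negative over all genes. Without CTX 3, 7 were positive with a median of 0.13, beside 56% negative and a median of −0.03 over all genes. The shift was widest without CTX 1. With 2 CTX libraries against 3 controls, 9 of 10 were negative and the median was −0.36, beside 44.2% negative and a median of 0.03 over all genes. Prdx3, Prdx6 and Hmox1 had an unadjusted p under 0.05, where 16.6% of all genes did, and none of the 10 was called (smallest limma adjusted p 0.216). CTX 2 and 3 were also low in luteal and high in granulosa, oocyte, theca and adipocyte markers by their sums. The reverse held for 2 of the 3 controls. This comparison therefore cannot be told apart from the content of any of these cell types. With the mean of the luteal markers as a covariate in a fit to all 6 libraries, 6 of 10 were positive with a median of 0.18, beside 57.7% negative and a median of −0.04 over all genes. Hmox1 had an unadjusted p under 0.05, as did 13.1% of all genes, and again none of the 10 was called (smallest limma adjusted p 0.369, for Hmox1). The values in that fit were 0.31 ± 0.21 (SE) for Sod1, 0.20 ± 0.08 for Sod2, 0.21 ± 0.18 for Prdx6 and −0.26 ± 0.10 for Hmox1. Hmox1, Cat and Prdx3 were negative in each of these fits and under every other alternative described below.

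Genes that work with the 10 enzymes were listed in 5 groups of 84 different genes, of which 72 passed the filter. Limma called 0 higher and 0 lower, and 33 were positive and 39 negative, with a median log2 fold change of −0.01. The groups did not overlap in 7 of them, 3 higher and 4 lower in CTX, where 3.32% of all genes lay higher and 5.5% lower. In the peroxiredoxin cycle, all 18 listed genes passed the filter, 10 positive and 8 negative. Txnip, the inhibitor of thioredoxin, had 335, 287 and 473 RPKM in the controls and 201, 294 and 289 under CTX, with its lowest value in CTX 1. Txn1, the cytosolic thioredoxin that recharges peroxiredoxins, had 104, 112 and 109.98 in the controls and 179, 122 and 116 under CTX. All CTX libraries of Txn1 were above all controls, CTX 1 by most, and its log2 fold change was 0.33 (−0.13 to 0.78). Glrx5, the mitochondrial glutaredoxin of iron-sulfur cluster assembly, had 72.6 ± 7.51 and 80.8 ± 35.2, and Txnl1, a thioredoxin-like gene and the one with the smallest p of this list, 52.4 ± 7.84 and 65.0 ± 5.84. Prdx4, the peroxiredoxin of the endoplasmic reticulum, had 25.7, 23.9 and 42.1 in the controls and 31.0, 36.8 and 36.3 under CTX. Its highest library was control 3, a low library for Prdx1, Prdx2 and Prdx6.

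Superoxide sources and the copper supply of the dismutases had 10 of 14 genes above the filter, 4 positive and 6 negative. The copper chaperone Atox1 had 82.2, 92.8 and 59.2 RPKM in the controls and 163, 67.4 and 60.6 under CTX, with CTX 1 highest and control 2 second as in Prdx1. Ccs, which loads copper into SOD1, had 42.8 ± 2.002 and 44.3 ± 10.9. The oxidase subunit gene Cyba had 36.4 ± 4.68 and 39.4 ± 8.16, and the oxidase genes Nox1, Nox4, Duox1 and Duox2 were under the filter. Xdh, encoding xanthine dehydrogenase, had 9.93, 7.28 and 8.28 in the controls and 4.67, 7.10 and 7.17 under CTX. All CTX values of Xdh lay below all controls, with a log2 fold change of −0.39 (−0.85 to 0.08).

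Of the peroxisomal oxidases and catalase import genes, 14 of 18 passed the filter, 4 positive and 10 negative. Hao2, a peroxisomal hydroxyacid oxidase that forms hydrogen peroxide, was the most abundant and had the smallest p of the list. It had 123, 119 and 132 RPKM in the controls and 104, 45.1 and 47.9 under CTX. All CTX values lay below all controls, CTX 1 by least, with a log2 fold change of −1.02 (−1.79 to −0.25) and a limma adjusted p of 1.00. Without CTX 1 Hao2 was called lower (−1.40, adjusted p 0.0487), as the only gene of the 5 lists. Cat, in the same organelle, had a far smaller difference (−0.19). Hsd17b4, a peroxisomal enzyme of fatty acid oxidation, had 42.3 ± 0.636 and 47.1 ± 3.69, and Pex2, a peroxisome assembly gene, 39.1 ± 2.55 and 36.4 ± 10.1.

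Heme and iron genes had 13 of 16 above the filter, 6 positive and 7 negative. The ferritin light chain gene Ftl1 had 1138, 1067 and 682 RPKM in the controls and 1427, 579 and 615 under CTX, again high in controls 1 and 2 and CTX 1. The heavy chain gene Fth1 did not show that division, with 971, 954 and 1039.5 in the controls and 1295, 1153 and 991 under CTX. Alas1, which starts heme synthesis, had 103, 52.4 and 57.2 in the controls and 51.1, 48.3 and 46.6 under CTX. All CTX values of Alas1 were below all controls, with a log2 fold change of −0.47 (−1.09 to 0.16). Hmox2, the constitutive heme oxygenase, had 23.1, 25.9 and 22.4 in the controls and 25.6, 18.7 and 20.6 under CTX, within a narrower range than its relative Hmox1.

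NRF2 regulators and targets had 19 of 20 genes above the filter, 9 positive and 10 negative with a median of 0.00. Txnrd1 and Srxn1, which are also in the peroxiredoxin list, had 54.0 ± 16.0 and 52.2 ± 19.2, and 16.1 ± 5.64 and 12.2 ± 8.11 RPKM. Srxn1, the sulfiredoxin that repairs overoxidized peroxiredoxins, had 17.6, 20.8 and 9.84 in the controls and 21.5, 7.97 and 7.02 under CTX. These values divided the libraries as those of Prdx1 did. Me1, the NADPH-making malic enzyme, had 505, 480.2 and 277 in control and 599.8, 166 and 174 in CTX, and Taldo1 of the pentose phosphate pathway 84.7 ± 20.3 and 94.6 ± 63.5. Pgd, another NADPH source and the gene with the smallest p of the list, had 25.8 ± 0.237 and 30.2 ± 2.34, with all CTX libraries above all controls and a log2 fold change of 0.22 (−0.03 to 0.47). Nfe2l2, the gene of NRF2 itself, had 59.2, 55.0 and 45.5 in the controls and 52.4, 47.0 and 46.3 under CTX, and Keap1, its repressor, 14.4 to 16.7 and 15.4 to 15.6.

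**Figure D4:**
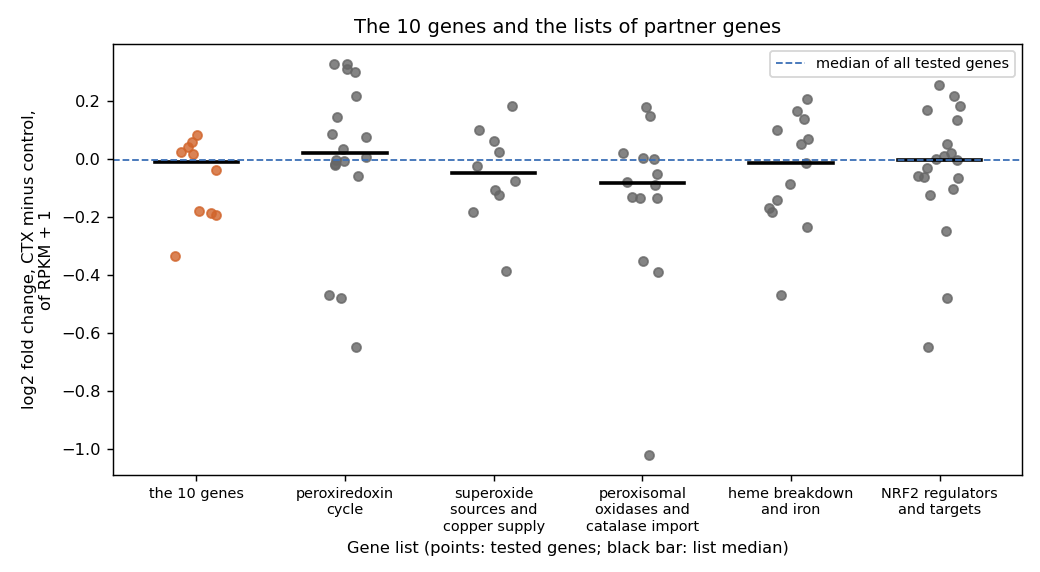
Log2 fold changes of RPKM + 1, CTX minus control, for the 10 genes (orange) and for the tested genes of 5 partner lists (grey), 1 point per gene, with a black bar at each median and a dashed line at the median of all tested genes. The list medians lie between −0.08 and 0.02, beside −0.01 for all genes, and the lowest point is Hao2 at −1.02.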

How the data were processed

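RNA of whole ovaries was measured in 6 libraries, 3 control and 3 CTX, grouped by their titles. The authors deposited 1 table per library of RPKM, and no header states the unit. It was inferred from low values of genes up to 1000 exonic bases long, of which 97.7 to 98.1% corresponded to whole reads within 0.2. The submitters' processing notes name Bowtie 0.12.2 and mm10. The sources used here do not give the counter, annotation or strand use. Exon lengths and coordinates are from GENCODE M21 on GRCm38, which matched 98.0% of 46078 identifiers.

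Genes reaching an RPKM of 1 in 3 or more of the 6 libraries (14535) were compared as log2(RPKM + 1) in limma 3.58.1 (R 4.3.3), with a mean-variance trend and Benjamini-Hochberg adjustment over all of them, two-sided. The pseudocount understates the change of low genes. The alternatives were TMM-like scaling, quantile normalization, no filter, pseudocounts of 0.1 and 0.5, no trend, the replicate number as a block, a luteal covariate, removal of the trend with exon length, and each library left out. Named by rule were the 10 genes, from each partner list the 3 most abundant genes and the one with the smallest p, the most abundant gene of each marker list, and for the 3 genes with the widest ranges the 2 most similar profiles. Prdx4, Hmox2, Srxn1, Nfe2l2, Keap1, Rgs5, Csf1r, Cd163, Foxl2, Inhbb and Insl3 were chosen after values were seen. So were the adipocyte, oocyte and theca sums, and the count of genes that divide the libraries by luteal level. The same holds for the totals over all genes of each library. It also holds for genes named only for overlap, a low level or a missing match. The 10 genes and all lists were chosen with earlier results of these data known. In the erythroid list 2 of 9 names (Epb42 and Ahsp) had no match and were not used.

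The most abundant gene of the luteal list was Hsd3b1 (3912 ± 897 RPKM in control and 3107 ± 1984 in CTX). For the other lists it was Inha (granulosa, 1097 ± 770 and 1239 ± 696), Padi6 (oocyte, 41.4 ± 21.2 and 58.8 ± 34.0) and Aldh1a1 (theca and interstitial, 972 ± 215 and 1117 ± 411). It was Hbb-bs (erythroid, 12.2 ± 1.55 and 29.1 ± 14.9), Cldn5 (endothelial, 36.7 ± 5.50 and 32.9 ± 5.70) and Ltf (neutrophil, 2.9 ± 2.05 and 2.06 ± 2.77). It was Cfd (adipocyte, 30.8 ± 52.0 and 68.7 ± 59.4) and Rplp1 (ribosomal, 1213 ± 99.9 and 1688 ± 437), beside Lyz2 and Acta2 named above. Of the 9 neutrophil markers, only Ltf was above the filter, and Elane and Ly6g were at 0 in every library.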

Additional observations from a re-analysis of the deposited data

How the results depend on the processing

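None of the 10 genes was called under any of the 15 alternatives (smallest limma adjusted p 0.216, for Hmox1 without CTX 1). Of 150 gene values under alternatives, 126 kept their direction and 24 turned, 16 of them with a library left out. The values that turned with another setting were Prdx1 −0.029, Prdx2 −0.085 and Prdx5 −0.0026 after quantile normalization, Sod2 0.20, Sod3 −0.035 and Prdx6 0.21 with the luteal covariate, and Sod2 0.013 and Prdx2 −7.9e-05 after removal of the length trend. The cause was not tested. Leaving out 1 library in turn gave −0.34 to 0.34 for Sod1, −0.37 to 0.14 for Sod2, −0.0501 to 0.10 for Sod3, −0.32 to 0.22 for Prdx1, −0.50 to 0.30 for Prdx2, −0.17 to 0.18 for Prdx5 and −0.78 to 0.12 for Prdx6, so each of these changed sign. The signs turned without control 3 or CTX 1 for Sod1, Prdx1 and Prdx2, without CTX 1 for Prdx5, without control 1, control 2, CTX 2 or CTX 3 for Sod2, without control 2 or CTX 2 for Sod3, and without control 2, CTX 2 or CTX 3 for Prdx6. Prdx3 (−0.39 to −0.076), Cat (−0.27 to −0.14) and Hmox1 (−0.46 to −0.21) stayed negative. The median of the 10 ran from −0.36 (without CTX 1) to 0.13 (without CTX 3). Over all genes, the counts called were 0 higher and 0 lower except with the luteal covariate (0 higher and 2 lower, Coro2a and Inhbb) and without CTX 1 (2 higher and 3 lower). Leaving out 1 library gave 0 to 2 genes called higher, 0 to 3 lower and 0 to 1 partner genes lower, the last being Hao2 without CTX 1. With the replicate number as a block, 0 genes were called higher and 0 lower, no call changed, and the median of the 10 stayed at −0.01. The labels do not say whether same-numbered libraries share more than a number. Their deviations from the group means correlated at 0.40, −0.54 and 0.60 across genes for numbers 1, 2 and 3. These values cannot decide it, because the libraries also divide by luteal, granulosa, oocyte, theca and adipocyte markers. Not every library correlated best with its own number, as control 2 and CTX 1 had 0.61. TMM-like scaling gave CTX 1 a factor of 0.913 and moved the median of all genes from −0.01 to 0.01. The estimated reads of the 10 genes rest on annotated exon lengths, and how far depth limits their precision was not tested.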
